A study of Mus musculus with 6 samples.

Results

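The Hox genes of the mouse lie in 4 clusters, Hoxa on chromosome 6, Hoxb on chromosome 11, Hoxc on chromosome 15 and Hoxd on chromosome 2. All genes whose symbol is Hoxa, Hoxb, Hoxc or Hoxd followed by a number were taken, which gave 39 of the 20284 genes named on the array: 11 of the A cluster, 10 of B, 9 of C and 9 of D. Where a gene had several probes, the brightest was taken. The cells were KSL cells, the c-Kit positive, Sca-1 positive, lineage negative fraction of blood-forming tissue that contains the hematopoietic stem cells, sorted from C57BL6 mice. Bone marrow KO cells (2 arrays) carried CreERT and floxed Tif1b alleles (Tif1bf/f), and bone marrow WT cells (2 arrays) carried CreERT and unfloxed alleles (Tif1bw/w). Fetal liver KO cells (1 array) carried Tie2-Cre and Tif1bf/f, and fetal liver WT cells (1 array) carried Tie2-Cre and Tif1bw/w. All groups thus carry a Cre, and tissue, kind of Cre and array slide cannot be told apart. Tie2-Cre is active in endothelial as well as blood-forming cells, and the labels give neither a promoter for CreERT nor the ages beyond fetal and adult. The genotype of both bone marrow replicate 2 arrays is spelled Tif2b, and the description lines of the bone marrow replicate 1 arrays name a knockdown of Hp1a (WT) or Hp1g (KO) in c-Kit+ Lineage- cells. Tif1b is the gene listed as Trim28, a corepressor of transcription. The labels do not tie arrays to separate animals, and the p-values may thus rest on technical spread alone.

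Hox genes encode homeodomain transcription factors that set position along the body axis of the embryo. Genes of the same number in different clusters are paralogues, and within a cluster the low-numbered, anterior genes are switched on earlier and nearer the head than the high-numbered, posterior genes. HOX proteins bind DNA together with cofactors of the MEIS and PBX families, MLL complexes keep active Hox genes on, and Polycomb complexes keep silent ones off. In blood formation Hox genes are used again: Hoxb4 expands stem cells when forced on, and Hoxa9 with its cofactor Meis1 drives leukaemia when it stays on. Groups 1 to 3 are called anterior here, 4 to 8 central and 9 to 13 posterior.

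Promoter windows of RefSeq (build GRCm38.p6), each of 300 bases with 250 bases before and 50 after a gene's start, were matched by symbol for 22 of the 39 genes, which have 24 windows. Among those not matched were Hoxa4, Hoxb2, Hoxb3, Hoxb5, Hoxb6, Hoxb7, Hoxb9, Hoxb13, Hoxc5, Hoxc6 and Hoxc8 to Hoxc13. Windows of 5 genes are printed, as examples of what the results turn on: Hoxa7 and Hoxa9, above background on all arrays; Hoxb4 and Hoxa10, with higher levels in bone marrow by the tabled values; and Hoxd13, of a cluster with no gene above background. They lie at chr6:52218524-52218823 (Hoxa7), chr6:52227321-52227620 (Hoxa9), chr6:52240805-52241104 and chr6:52234890-52235189 (the 2 starts of Hoxa10), all on the minus strand, and at chr11:96318017-96318316 (Hoxb4) and chr2:74667975-74668274 (Hoxd13), on the plus strand. Each reads 5′ to 3′ along its gene, and capitals mark every CG.
Hoxa7: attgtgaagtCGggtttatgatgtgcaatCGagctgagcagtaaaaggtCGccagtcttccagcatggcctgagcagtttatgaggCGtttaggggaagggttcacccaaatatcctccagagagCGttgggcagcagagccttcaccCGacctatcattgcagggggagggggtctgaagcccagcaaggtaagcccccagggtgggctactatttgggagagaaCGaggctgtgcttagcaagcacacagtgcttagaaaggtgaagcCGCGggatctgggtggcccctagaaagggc
Hoxa9: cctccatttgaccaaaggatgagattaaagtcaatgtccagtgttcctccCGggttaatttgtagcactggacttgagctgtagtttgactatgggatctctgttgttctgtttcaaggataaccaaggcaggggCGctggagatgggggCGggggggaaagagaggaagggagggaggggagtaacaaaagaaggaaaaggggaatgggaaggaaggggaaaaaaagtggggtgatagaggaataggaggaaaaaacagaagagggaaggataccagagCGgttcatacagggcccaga
Hoxa10, first start: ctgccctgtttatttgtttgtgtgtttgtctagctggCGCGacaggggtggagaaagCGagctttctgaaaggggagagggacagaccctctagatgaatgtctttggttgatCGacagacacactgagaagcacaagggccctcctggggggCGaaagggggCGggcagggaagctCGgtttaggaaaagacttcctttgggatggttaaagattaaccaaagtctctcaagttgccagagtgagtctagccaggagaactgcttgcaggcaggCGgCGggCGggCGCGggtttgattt
Hoxa10, second start: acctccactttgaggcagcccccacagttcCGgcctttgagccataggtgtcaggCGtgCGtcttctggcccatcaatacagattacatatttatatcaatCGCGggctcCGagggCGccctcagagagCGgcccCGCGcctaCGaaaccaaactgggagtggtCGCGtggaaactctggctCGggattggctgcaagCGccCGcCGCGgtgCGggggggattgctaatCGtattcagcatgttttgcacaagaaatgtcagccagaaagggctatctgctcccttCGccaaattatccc
Hoxb4: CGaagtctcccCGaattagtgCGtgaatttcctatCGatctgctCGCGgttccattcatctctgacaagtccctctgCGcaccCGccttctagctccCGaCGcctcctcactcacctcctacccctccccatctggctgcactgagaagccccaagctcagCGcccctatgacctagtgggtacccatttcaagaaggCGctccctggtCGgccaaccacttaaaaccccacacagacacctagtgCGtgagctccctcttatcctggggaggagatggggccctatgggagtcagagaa
Hoxd13: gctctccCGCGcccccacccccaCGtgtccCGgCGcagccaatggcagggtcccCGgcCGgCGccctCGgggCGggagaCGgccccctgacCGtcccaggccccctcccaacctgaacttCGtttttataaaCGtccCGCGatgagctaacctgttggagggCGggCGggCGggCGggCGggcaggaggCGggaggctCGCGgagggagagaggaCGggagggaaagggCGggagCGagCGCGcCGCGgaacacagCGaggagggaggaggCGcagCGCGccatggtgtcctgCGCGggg

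The printed windows differ in CG content. There were 9 CG in the Hoxa7 window, 4 in that of Hoxa9, 12 and 21 in those of Hoxa10, 14 in that of Hoxb4 and 37 in that of Hoxd13. The median was 14.5 over the 24 Hox windows, which ranged from 4 to 45 (Hoxa13), against 7 over all 32851 windows. Grouped by the array values below, the medians were 14 (range 4 to 29, 5 windows) for Hox genes above background on all arrays, 12.5 (9 to 26, 6 windows) for those above on some, and 20 (4 to 45, 13 windows) for those above on none. These ranges overlap. Short motifs were searched on both strands. CCAAT was in 15 of the 24 Hox windows (62.5%) against 37.4% of all windows, CACGTG in 5 (20.8%) against 7.15%, TATAAA in 4 (16.7%) against 13.6%, and TGATNNAT in 4 (16.7%) against 8.85%. No matches of different motifs overlapped within a Hox window. None of the 4 motifs is spelled in the Hoxa7, Hoxa9 and Hoxb4 windows. The Hoxd13 window holds CACGTG once, CCAAT once and a single stretch where TATAAA matches on both strands, the matches overlapping. These are matches of letters, not tested sites.

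Values are levels, that is log2 of the processed signal minus the 75th percentile of the same array, so that 0 is the signal of that percentile and each unit is a doubling. A probe counts as above background by the scanner software's own flag. Trim28 had levels of 1.28 and 0.75 in bone marrow KO, 2.45 and 5.55 in bone marrow WT, 1.68 in fetal liver KO and 5.97 in fetal liver WT. The low WT value belongs to the array labelled WT replicate 1, which stands apart in its scanner file but not in the authors' deposited value table. There its Trim28 level was 5.18, and Kit, the receptor used in the sort, was at 4.16 against 1.30 in the scanner file. Its summed megakaryocyte markers (10 genes, linear scale) came to 0.787 by the scanner and 135 by the table, and its B lymphoid markers to 272 and 21.6. Only 1.40% of its compared probes matched between the sources within 1%, whereas the other 5 arrays matched throughout. Every result is therefore given with both sources of that array, called scanner and tabled values, and where it matters without the array. Arrays also differed in brightness: 75th percentile signals were 325 and 743 in bone marrow KO, 281 and 737 in bone marrow WT, 211 in fetal liver KO and 219 in fetal liver WT. A dim array detects fewer low genes.

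Of the 39 Hox genes, 6 were above background on all 6 arrays, 16 on some arrays and 17 on none, by the scanner values. Over all genes on the array these shares were 54.9%, 19.5% and 25.7%. Detection was uneven between clusters: 9 of 11 Hoxa genes, 8 of 10 Hoxb genes, 5 of 9 Hoxc genes and 0 of 9 Hoxd genes were above background on at least 1 array. Along the clusters it covered 5 of 8 anterior, 11 of 15 central and 6 of 16 posterior genes. The 6 genes above background on every array were Hoxa3, Hoxa5, Hoxa7, Hoxa9, Hoxb2 and Hoxb4. The 17 genes above background on none were Hoxa11, Hoxa13, Hoxb1, Hoxb13, Hoxc5, Hoxc8, Hoxc11, Hoxc12 and the whole D cluster, Hoxd1, Hoxd3, Hoxd4, Hoxd8, Hoxd9, Hoxd10, Hoxd11, Hoxd12 and Hoxd13. They include Hoxa13 and Hoxd13, which pattern digits in the limb, and for them only an upper bound on the signal was measured. In sorted cells, a low level may come from fewer cells that use the gene or from less RNA in each, which cannot be told apart here.

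**Figure D1:**
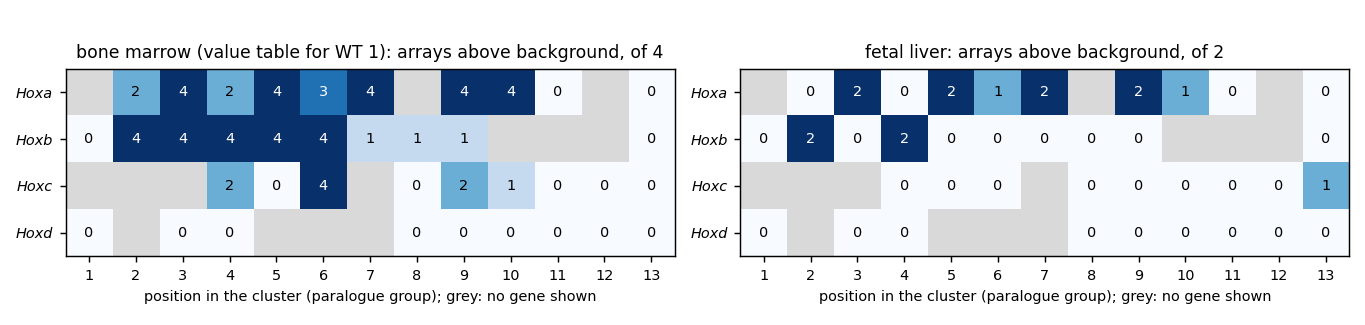
Number of arrays on which Hox genes were above background, by cluster (down) and position in the cluster (across), for the 4 bone marrow arrays on the left and the 2 fetal liver arrays on the right, with the tabled values for the array labelled WT replicate 1. The D cluster is at 0 throughout, and the run Hoxb2 to Hoxb6 is filled in bone marrow but only at Hoxb2 and Hoxb4 in fetal liver.

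By group, 12 Hox genes were above background on both bone marrow KO arrays, where 60.8% of all genes were. On both bone marrow WT arrays there were 10 Hox genes by the scanner values and 13 by the tabled values (61.4% and 61.3% of all genes). The fetal liver KO array had 10 (60.4% of all genes) and the fetal liver WT array 6 (59.9%). Array by array, the counts were 13 and 20 in bone marrow KO, where 61.5% and 68.6% of all genes were above background. They were 10 (13 tabled) and 16 in bone marrow WT, where 63.5% (61.7% tabled) and 68.6% of all genes were. The brightest arrays, replicate 2 of both bone marrow genotypes, had the highest counts, and the part of brightness in the counts was not tested. With the tabled values, 11 Hox genes were above background on all 4 bone marrow arrays (59.1% of all genes), and 4 of them on no fetal liver array (2.03% of all genes): Hoxb3, Hoxb5, Hoxb6 and Hoxc6. With the scanner values only Hoxc6 had that pattern (1.67% of all genes).

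The A cluster held 4 of the 6 genes that were above background on every array. Hoxa7, which is on together with Hoxa9 in MLL-rearranged leukaemia, had levels of 3.54 and 3.04 in bone marrow KO, 4.05 (4.04 tabled) and 3.56 in bone marrow WT, 3.56 in fetal liver KO and 3.69 in fetal liver WT. The groups overlapped, and the lowest array was bone marrow KO replicate 2. Hoxa9 had -0.29 and -0.65 in bone marrow KO, -1.24 (-0.25 tabled) and -0.37 in bone marrow WT, -0.88 in fetal liver KO and -1.14 in fetal liver WT. With the tabled value all bone marrow arrays lay above the fetal liver arrays, and with the scanner value they did not. The second Hoxa9 probe did not repeat that order: -0.20 and -0.86 in bone marrow KO, -1.81 (-0.34 tabled) and -0.78 in bone marrow WT, -0.42 in fetal liver KO and -0.64 in fetal liver WT.

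Hoxa3, needed for thymus and parathyroid, had levels of -0.72 and -0.67 in bone marrow KO, 0.11 (-0.11 tabled) and -0.52 in bone marrow WT, -1.05 in fetal liver KO and -0.86 in fetal liver WT. Hoxa5, needed for lung and the cervical and upper thoracic skeleton, had -1.16 and -1.25 in bone marrow KO, -0.85 (-0.77 tabled) and -1.27 in bone marrow WT, -1.57 in fetal liver KO and -1.34 in fetal liver WT. For both genes every bone marrow array lay above both fetal liver arrays, by small margins, with either source. Hoxa10, a posterior gene that acts in myeloid progenitors and the uterus, had 0.01 and -0.74 in bone marrow KO, -6.06 (-1.0 tabled) and -0.82 in bone marrow WT, -1.54 in fetal liver KO and -3.08 in fetal liver WT. Its scanner value on the array labelled WT replicate 1 and its fetal liver WT value were not above background. All bone marrow values except that scanner value lay above both fetal liver values.

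Other genes of the A cluster were above background on some arrays only. Hoxa6 was above background on the bone marrow KO replicate 2 array (-3.24), on both bone marrow WT arrays (-2.78, or -2.64 tabled, and -3.07) and on the fetal liver KO array (-2.85). Hoxa2, which patterns the second branchial arch, was above at -3.93 on bone marrow KO replicate 2 and at -3.47 on both bone marrow WT arrays by the scanner values, while the tabled value of the array labelled WT replicate 1 (-3.86) did not count as above. Hoxa4 was above only on the replicate 2 arrays of bone marrow, at -3.92 in KO and -3.81 in WT.

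In the B cluster, Hoxb2 to Hoxb5 lay apart by tissue with the tabled values. Hoxb4, the stem cell expanding gene, had levels of 1.26 and 1.29 in bone marrow KO, 0.28 (1.02 tabled) and 1.44 in bone marrow WT, 0.04 in fetal liver KO and -0.25 in fetal liver WT. Every bone marrow array lay above both fetal liver arrays, with either source. Hoxb2, which acts in hindbrain segments, had 1.21 and 1.05 in bone marrow KO, -3.35 (0.35 tabled) and 0.13 in bone marrow WT, -2.29 in fetal liver KO and -2.59 in fetal liver WT. The tissues did not overlap with the tabled value, while the scanner value of the array labelled WT replicate 1 was the lowest of all.

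Hoxb5, a marker of long-term repopulating stem cells in mouse bone marrow, had levels of -1.89 and -0.86 in bone marrow KO and -5.77 (-2.06 tabled) and -1.86 in bone marrow WT. Its fetal liver values, -4.43 in KO and -3.61 in WT, were not above background. Hoxb3, which shares hindbrain roles with its neighbours, had -2.31 and -2.22 in bone marrow KO and -6.40 (-2.0 tabled) and -2.44 in bone marrow WT, against -5.55 in fetal liver KO and -4.56 in fetal liver WT, both not above background. For both genes the scanner value of the array labelled WT replicate 1 was also not above background, so that 3 of 4 bone marrow arrays measured them by the scanner files and 4 of 4 with the table. The second Hoxb3 probe was above background on the replicate 2 arrays, at -2.88 in KO and -3.41 in WT, and by the table at -2.86 on the array labelled WT replicate 1. It was above background on neither fetal liver array.

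Hoxb6, a central gene active in trunk and limb, had levels of -3.09 and -2.76 in bone marrow KO and -4.10 (-2.47 tabled) and -2.59 in bone marrow WT. It was not above background in fetal liver, at -3.17 in KO and -3.99 in WT, and its bone marrow KO replicate 1 value lay close to the fetal liver KO value. Beyond Hoxb6 no gene of the cluster was above background on more than 1 array. Hoxb7 (-4.56) and Hoxb8 (-4.53) were above background only on bone marrow KO replicate 2, and Hoxb9 (-2.80) only on bone marrow KO replicate 1.

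In the C cluster, Hoxc6, a thoracic gene, had levels of -1.91 and -1.13 in bone marrow KO and -3.86 (-3.39 tabled) and -1.66 in bone marrow WT, against -3.94 in fetal liver KO and -5.50 in fetal liver WT, both not above background. All bone marrow arrays measured it. The lowest fetal liver levels flagged above background were -3.30 in KO and -3.27 in WT, above the value of the array labelled WT replicate 1 by either source, so the order of that array and the fetal liver arrays was not measured. Hoxc9, a thoracic gene that organises spinal motor neurons, was above background only on the bone marrow KO arrays, at -3.41 and -2.85. It was at -6.09 (-6.16 tabled) and -5.79 in bone marrow WT, -5.24 in fetal liver KO and -5.18 in fetal liver WT, values without an order since none was above background. Hoxc4 was above on bone marrow KO replicate 2 (-3.15), bone marrow WT replicate 2 (-4.80) and, by its scanner file alone, the array labelled WT replicate 1 (-1.64, against -6.51 tabled). Hoxc13, which acts in hair and nail, was above background only on the fetal liver KO array (-0.27), and Hoxc10, a lumbar gene, only on bone marrow KO replicate 2 (-4.56).

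**Figure D2:**
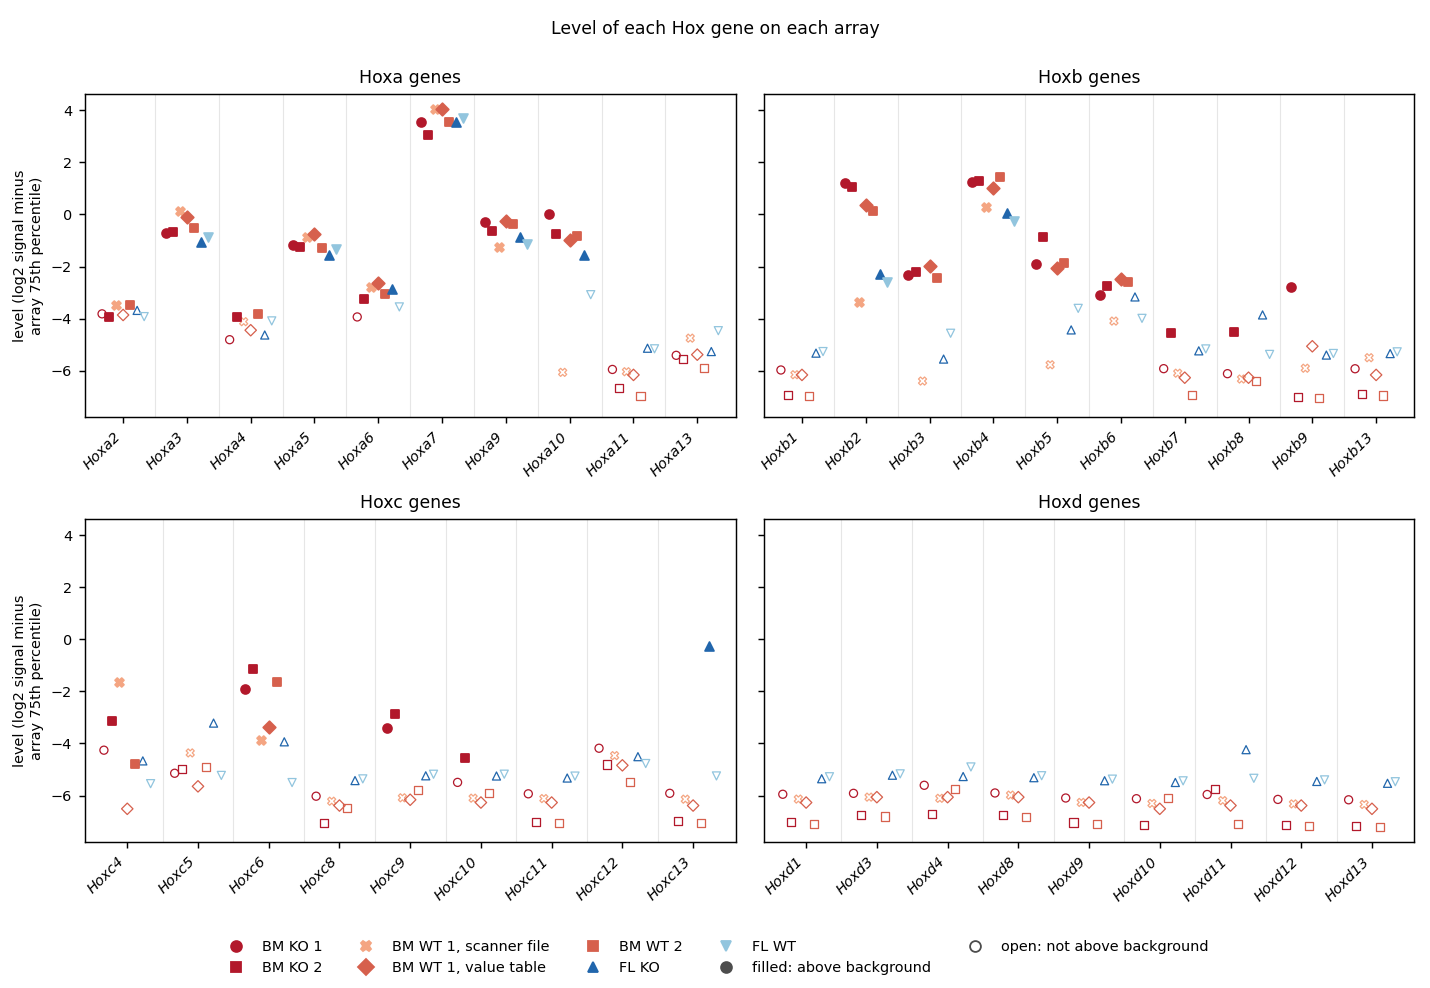
Level of 38 Hox genes (log2 of signal relative to the array's 75th percentile) on every array, with bone marrow KO, bone marrow WT, fetal liver KO and fetal liver WT from left to right within a gene. Filled points are above background and open points are not, and the tabled value of the array labelled WT replicate 1 is drawn apart from its scanner value. The scanner values of that array sit far below its tabled values at Hoxa10, Hoxb2, Hoxb3 and Hoxb5, with scanner minus tabled at -5.07 for Hoxa10.

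The comparison of bone marrow with fetal liver asks how the Hox genes of adult stem cell fractions differ from those of fetal ones. Hoxb2, Hoxb3, Hoxb4, Hoxb5, Hoxa10 and Hoxc6 were higher in bone marrow by the tabled values, and no Hox gene was called lower in that fit. The test was limma over all genes with tissue and genotype in the model, and called 6 of 15 Hox genes tested, against 22.9% of the 13499 genes tested in either direction and 8.92% called higher. With the scanner values it called 0 of 17 (2.1% of 13662 genes), with 3 of the 17 at an unadjusted p under 0.05. Leaving out the array labelled WT replicate 1, limma called 10.7% of all genes, among them Hoxb2, Hoxb3, Hoxb4, Hoxb5 and Hoxc6, and not Hoxa10 (adjusted p = 0.0697). The median difference of the Hox genes tested was 0.65 with the tabled values, against -0.26 over all genes tested. With no filter on dim probes the median was -0.69 for all 39 Hox genes, against -0.50 over all genes. By the scanner values these were -0.54 and -0.52. The unfiltered median includes the 17 Hox genes above background on no array. Among them, Hoxd13 had processed signals of 4.56 and 4.93 in fetal liver KO and WT and 3.46 to 5.17 in bone marrow. Its levels, each relative to its own array's percentile, were -5.53 and -5.47 in fetal liver and -7.22 to -6.16 in bone marrow. No direction for the Hox genes is read from the unfiltered median. Quantile normalization moved the median of all genes to -0.06, against -0.30 for the scanner values, and no gene of these 6 changed sign under it. Hoxb3, Hoxb5, Hoxb6 and Hoxc6 entered the test only through bone marrow groups, which favours a higher value there, and nothing is read from the count over genes tested.

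Hoxb2 averaged 0.69 ± 0.53 in bone marrow and -2.44 ± 0.21 in fetal liver (SD, n = 4 and 2, tabled values). The fitted difference was 3.12 ± 0.22 (SE; 95% interval 2.58 to 3.67; limma adjusted p = 0.00242). By the scanner values it was 2.20 ± 1.1 (limma adjusted p = 0.256). Hoxb4 averaged 1.25 ± 0.17 in bone marrow and -0.11 ± 0.20 in fetal liver, a difference of 1.36 ± 0.20 (limma adjusted p = 0.0126), against 1.17 ± 0.39 by the scanner values (adjusted p = 0.145). Hoxa10 averaged -0.64 ± 0.44 in bone marrow and -2.31 ± 1.09 in fetal liver, a difference of 1.67 ± 0.33 (limma adjusted p = 0.0247), against 0.41 ± 1.47 by the scanner values. Of these 3 genes, Hoxb2 and Hoxb4 were above background on all arrays, so their folds are measured on both sides.

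For Hoxb3, Hoxb5 and Hoxc6 the fetal liver signal is only a bound, taken on each array at the lowest signal flagged above background, or at the probe's signal where that was higher. Hoxb3 was at least 2.06-fold higher in bone marrow (limma adjusted p = 0.00525), Hoxb5 at least 3.08-fold (adjusted p = 0.0208) and Hoxc6 at least 2.40-fold (adjusted p = 0.0243), all with the tabled values. By the scanner values Hoxc6 was at least 2.21-fold higher. No bound is given for Hoxb3 and Hoxb5 there, since they were above background on only 3 of 4 bone marrow arrays. Hoxb6 was at least 1.41-fold higher with the tabled values but did not pass (limma adjusted p = 0.104). Here and below, an adjusted p beside a bound comes from the fit to levels as measured, values below background included. The bounds themselves were not tested.

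Comparisons within a genotype can be made without the array labelled WT replicate 1. Bone marrow KO minus fetal liver KO was 3.42 for Hoxb2 and 1.24 for Hoxb4, and bone marrow WT replicate 2 minus fetal liver WT was 2.72 for Hoxb2 and 1.69 for Hoxb4. Hoxb5 was at least 3.81-fold higher in bone marrow KO than in fetal liver KO, and at least 2.67-fold higher in bone marrow WT replicate 2 than in fetal liver WT. Hoxc6 was at least 3.44-fold and 3.06-fold higher in these comparisons, and Hoxb3 at least 2.05-fold and 1.78-fold. Hoxa10 was at least 4.78-fold higher in bone marrow WT replicate 2 than in fetal liver WT, while in KO the gene was measured in both tissues.

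With the slide as a random block, limma on the tabled values kept Hoxb2 (adjusted p = 0.0137), Hoxb3 (0.0295) and Hoxb4 (0.0497), and no longer called Hoxb5 (0.0877), Hoxc6 (0.0653) and Hoxa10 (0.105). That fit called 6.11% of all genes. With normexp background correction of the scanner values Hoxb3 differed by 0.13, Hoxb5 by 0.40 and Hoxc6 by 0.52, so the sizes of these genes near background depend on the correction.

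**Figure D3:**
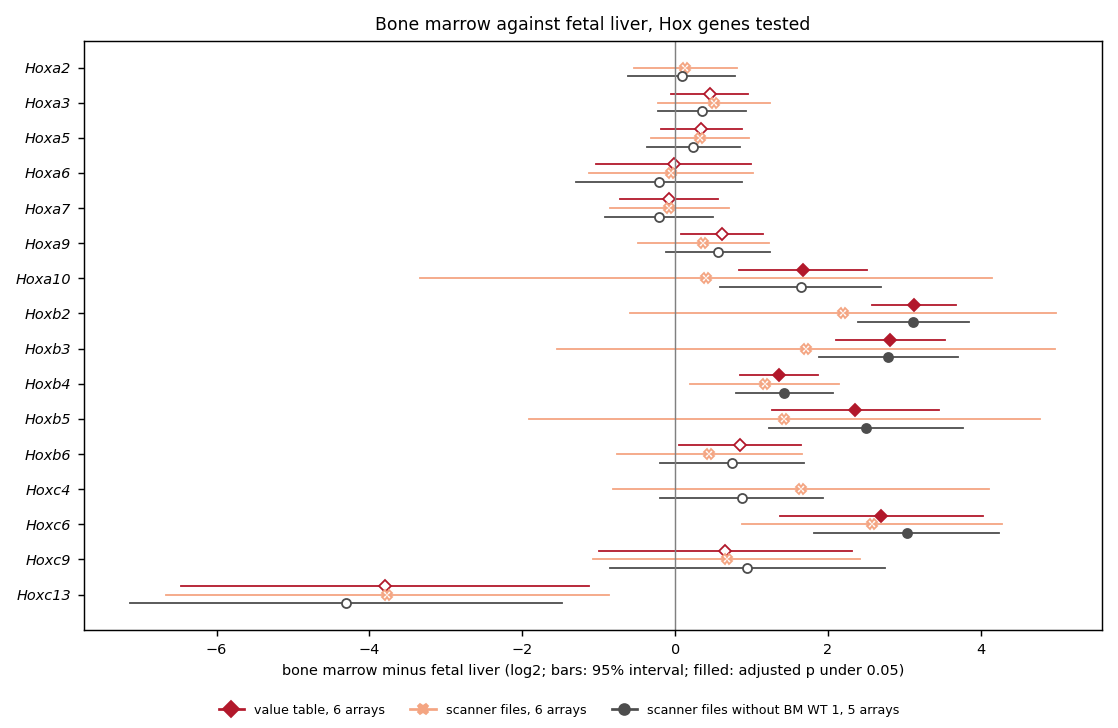
Bone marrow minus fetal liver for Hox genes tested (log2 difference with its 95% interval) with the tabled values, the scanner values and the scanner values without the array labelled WT replicate 1. Filled symbols passed at an adjusted p under 0.05: Hoxb2, Hoxb3, Hoxb4, Hoxb5 and Hoxc6 in the first of these fits and in the last, Hoxa10 in the first alone, and none with the scanner values of all arrays.

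The remaining Hox genes tested did not pass in this comparison with either source. Hoxa7 differed by -0.08 ± 0.26 (95% interval -0.72 to 0.57, tabled values), Hoxa5 by 0.34 ± 0.21 (-0.19 to 0.87), Hoxa3 by 0.45 ± 0.20 (-0.05 to 0.96) and Hoxa9 by 0.62 ± 0.21 (0.08 to 1.15; limma adjusted p = 0.087). Hoxc13, lower in bone marrow, did not pass either (limma adjusted p = 0.0554, tabled values). It was above background on the fetal liver KO array alone, so no fold between the tissues is given. With the tabled values, every bone marrow array lay above every fetal liver array for Hoxa3, Hoxa5, Hoxa9, Hoxa10, Hoxb2 and Hoxb4. Values below background taken as given, Hoxb3, Hoxb5, Hoxb6 and Hoxc6 had the same order, as did 17.9% of all genes tested. With the scanner values Hoxa3, Hoxa5 and Hoxb4 had it, and Hoxc6 with values taken as given (12.9% of all genes tested). Hoxb3, Hoxb5, Hoxb6 and Hoxc6 were above background on no fetal liver array and entered through bone marrow alone. Nothing is read from their order, and that of Hoxc6 was not measured, as said above.

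Markers of cell types moved with tissue beside these genes. The 10 megakaryocyte markers summed to 252 and 283 in bone marrow KO and 135 (tabled; 0.787 by the scanner values) and 120 in bone marrow WT, against 36.5 in fetal liver KO and 42.3 in fetal liver WT. All 10 were above background on 3 of the 4 bone marrow arrays and 9 on the other with the tabled values, against 7 in fetal liver KO and 9 in fetal liver WT, with Gp6 on neither fetal liver array. The 10 erythroid markers summed to 584 and 77.5 in bone marrow KO and 27.4 (tabled) and 20.8 in bone marrow WT; the scanner value of the array labelled WT replicate 1, 2189, instead lay above both fetal liver arrays. The fetal liver sums were 1585 in KO and 889.7 in WT. The 10 neutrophil markers summed to 267 and 26.6 in bone marrow KO and 1321 (tabled; 1520 by the scanner values) and 675 in bone marrow WT, against 3262 in fetal liver KO and 3306 in fetal liver WT. Of the 10 stem cell and sorting genes, all were above background on the bone marrow arrays with the tabled values, with sums of 276 to 396 (8 genes and 245 on the array labelled WT replicate 1 by the scanner values), against 8 in fetal liver KO (323) and 9 in fetal liver WT (331), where Mecom was on neither array. The part of cell composition in the Hox differences was not tested.

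The comparison of KO with WT asks how loss of Tif1b changes these genes. In bone marrow, Hoxc9 was higher in KO by the tabled values and no other Hox gene passed. limma over the 4 bone marrow arrays called 1 of 14 Hox genes tested, against 0.876% of 12783 genes in either direction and 0.477% called higher. With the scanner values it called 0 of 15 and 0% of 13011 genes, with 1 Hox gene and 548 genes at an unadjusted p under 0.05. Hoxc9 had a difference of 2.85 ± 0.31 (SE; 95% interval 2.06 to 3.63; limma adjusted p = 0.0295) with the tabled values and 2.81 ± 0.41 (adjusted p = 0.68) with the scanner values. Its WT signals were not above background, and the fold was at least 2.37 by the tabled and at least 2.94 by the scanner values.

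The Hoxc9 probe had a single spot per array, with processed signals of 30.5 and 103 in bone marrow KO and 4.14 (scanner) and 13.3 in bone marrow WT. Hoxc9 entered the test through the KO group alone. Nothing is therefore read from the KO signals exceeding the WT signals, or from the count of Hox genes called. Per pair, it was at least 1.87-fold (1.22-fold tabled) higher in KO in replicate 1 and at least 4.62-fold in replicate 2, while in fetal liver the gene was above background on neither array. Without the array labelled WT replicate 1 the scanner fit gave 2.66 (limma adjusted p = 0.033, with 1.14% of all genes called) and the tabled fit 2.67 (adjusted p = 0.0736). With no filter on dim probes the tabled adjusted p was 0.144. With normexp background correction the difference was 0.69 (adjusted p = 1).

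With the slide of each pair as a replicate block, limma on the tabled values called 3 Hox genes and 7.67% of all genes. Of the 3, 2 were higher in KO and 1 lower. The higher ones were Hoxc9 (adjusted p = 0.00303) and Hoxb2, with a difference of 0.89 (adjusted p = 0.0426; 0.257 without the block). Per pair, Hoxb2 differed by 0.85 (tabled) and 0.93. With the scanner values the block called none of the Hox genes and 0% of all genes.

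**Figure D4:**
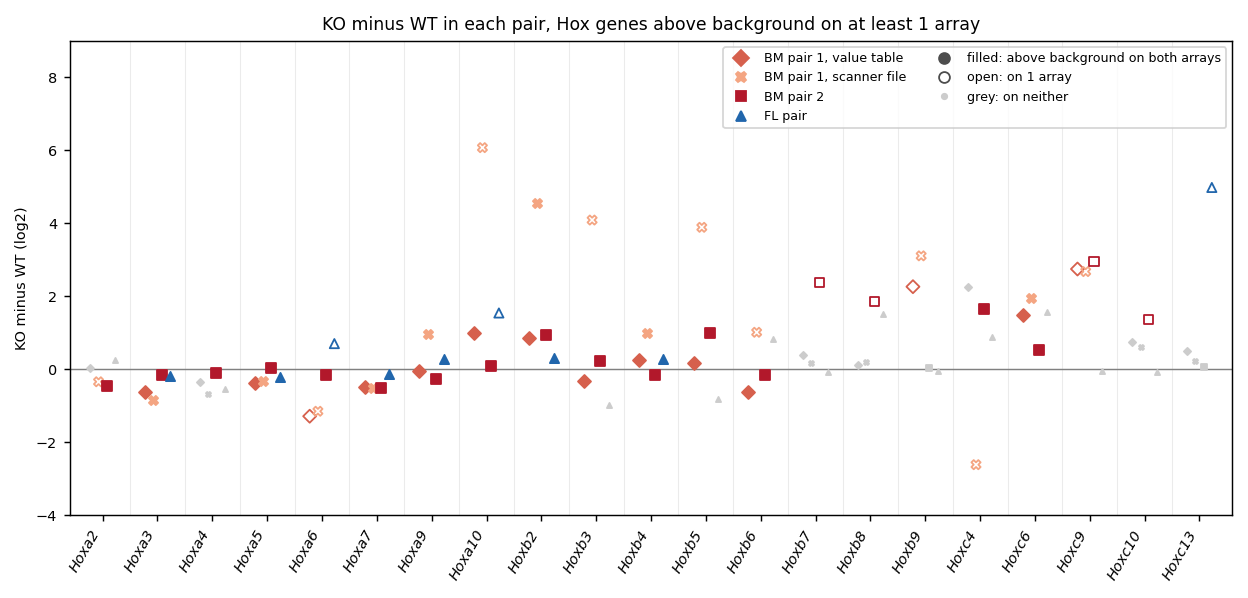
KO minus WT (log2 difference) for each pair of arrays on the same slide: bone marrow replicate 1 by the tabled and by the scanner values, bone marrow replicate 2 and fetal liver, for Hox genes above background on at least 1 array. Symbols are filled where both arrays of the pair were above background, open where 1 was, and small and grey where neither was. Hoxc9 is open in the bone marrow pairs, at 2.67 to 2.94, as is Hoxc13 in fetal liver, at 4.98: the WT side of each is below background.

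With all 4 bone marrow arrays and no block, none of the genes called between tissues was called between KO and WT. Without bone marrow WT replicate 2, the array labelled WT replicate 1 is the only WT array. The difference for Hoxb2 was then 4.48 by the scanner values and 0.78 by the tabled values. Per bone marrow pair, Hoxb4 differed by 0.24 (tabled) and -0.15, with a fitted difference of 0.05 ± 0.27 (95% interval -0.63 to 0.73). Hoxb3 differed by -0.32 (tabled) and 0.21, and Hoxb5 by 0.17 (tabled) and 0.99. Hoxa10 differed by 1.00 (tabled) and 0.09, and Hoxc6 by 1.47 (tabled) and 0.53. With the scanner values pair 1 instead gave 4.56 for Hoxb2, and Hoxa10 was at least 19.98-fold, Hoxb3 at least 4.01-fold and Hoxb5 at least 5.38-fold higher in KO, so for these genes the source of 1 array sets the size of the pair. Hoxa7 differed by -0.50 (tabled) and -0.52 in bone marrow and by -0.13 in fetal liver, and did not pass (limma adjusted p = 0.73). Hoxa9 differed by -0.05 (tabled) and -0.28 in bone marrow and 0.26 in fetal liver.

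Hoxb7, Hoxb8, Hoxb9 and Hoxc10 were each above background on 1 array only, in bone marrow KO. The other low genes Hoxa2, Hoxa4, Hoxa6 and Hoxc4 were above background on WT arrays too. The share of all genes seen on a single KO array was not counted, so nothing is read from this pattern. Hoxb9 was at least 2.86-fold higher in KO in pair 1 by the scanner values and at least 1.86-fold by the tabled value. Hoxb7 and Hoxc10 were at least 1.41-fold and Hoxb8 at least 1.44-fold higher in KO in pair 2. None of these was above background on the other KO array. Hoxc4 was at least 5.22-fold lower in KO in pair 1 by the scanner values, while with the table neither array of that pair was above background, and in pair 2 it differed by 1.66.

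In fetal liver the KO and WT groups are 1 array each, so differences have no replicate check. Of 10 Hox genes above background on either array, 3 were at least 2-fold higher in KO and 0 were at least 2-fold lower, where 9.75% of 12701 genes were at least 2-fold apart and 5.33% were higher. Among these, Hoxc13 was at least 8.01-fold and Hoxa10 at least 2.91-fold higher in KO. The Hoxc13 probe has a single spot per array, with a processed signal of 175 in fetal liver KO against 5.75 in fetal liver WT. The median difference of the 10 genes was 0.29, against -0.07 over all 12701 genes.

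The interaction of tissue and genotype is the KO minus WT difference in bone marrow minus that in fetal liver, and limma called 0% of all genes with either source. At an unadjusted p under 0.05 it gave 351 genes by the scanner and 950 by the tabled values. Leaving out the array labelled WT replicate 1 from the scanner values, it called 0.498% of all genes. Hoxc13 was above background on the fetal liver KO array alone, so its interaction rests on 1 spot of 1 array, and the other values in it are below background. It was -4.83 ± 1.0 by the scanner values (limma adjusted p = 1) and -4.73 ± 0.79 by the tabled values (adjusted p = 0.239). It passed without bone marrow WT replicate 2 (limma adjusted p = 0.00119 by the scanner and 0.0103 by the tabled values) and without bone marrow KO replicate 2 (0.0256, tabled). Over both tissues together, limma called no Hox gene for genotype with either source, against 0% of all genes by the scanner values (466 at an unadjusted p under 0.05) and 0.17% by the tabled values.

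Neutrophil, monocyte and dendritic markers moved with genotype in bone marrow, where limma called 4 of 10 and 4 of 8 lower in KO by the tabled values, against 0.876% of all genes in either direction, and none by the scanner values. The neutrophil sums given above did not overlap, with Mmp8 above background on neither KO array and all 10 above on both WT arrays. The 8 monocyte and dendritic markers summed to 214 and 196 in KO and 479 (tabled; 978 by the scanner values) and 304 in WT, and all were above background on every array. Among them Ly86 had levels of -1.25 and -2.59 in KO and 4.53 (tabled) and 3.17 in WT. Not all members fell this way. Ccr2 overlapped between the genotypes, at 3.63 and 2.24 in KO and 2.93 (tabled) and 2.25 in WT. Siglech differed little, at 7.55 and 7.53 in KO and 7.88 (tabled) and 7.59 in WT. None of the 10 megakaryocyte or 10 erythroid markers was called between KO and WT without the block. With the block, 3 and 5 were called higher in KO by the tabled values, in a fit that called 7.67% of all genes. The part of cell composition in the Hoxc9 difference was not tested.

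Cofactors and regulators of Hox genes were listed as well. Of 8 TALE cofactors tested between tissues with the tabled values, limma called 2 higher and 3 lower in bone marrow, against 22.9% of all genes tested in either direction. Meis1, the partner of Hoxa9, had levels of 5.76 and 5.64 in bone marrow KO, 1.33 (4.89 tabled) and 5.09 in bone marrow WT, 4.13 in fetal liver KO and 4.39 in fetal liver WT, a difference of 1.08 ± 0.27 (limma adjusted p = 0.0428, tabled). The tissues did not overlap with the tabled value. Pbx4 was above background on bone marrow arrays alone and Pknox2 on fetal liver arrays alone, so each entered the test only through the tissue where it is high. Pbx4 was at least 2.87-fold higher in bone marrow (limma adjusted p = 0.0141). Among those lower were Pbx2 (-2.33, limma adjusted p = 0.0048) and Pknox2, at least 10.3-fold lower (adjusted p = 0.00242). Pknox2 also passed with the scanner values (at least 11.5-fold lower, limma adjusted p = 0.0218), where no other member did.

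Of 18 genes of MLL and activator complexes tested, limma called Mllt3 higher in bone marrow (1.65, adjusted p = 0.0398) and Men1, the menin subunit of the complex, lower (-1.04, adjusted p = 0.0175), with the tabled values. No probe was named Kmt2a, the gene for MLL itself. Of 32 Polycomb genes, Aebp2 (0.79, limma adjusted p = 0.0355) and Pcgf6 (0.87, adjusted p = 0.0387) were called higher. The fit behind the calls in both lists called 22.9% of all genes tested in either direction and 8.92% higher. Bmi1 had levels of 2.74 and 2.28 in bone marrow KO, 2.78 (2.61 tabled) and 2.32 in bone marrow WT, 2.01 in fetal liver KO and 2.12 in fetal liver WT, and was not called. Ezh2, the Polycomb methyltransferase, lay between 3.30 and 3.82 on all arrays and was not called. The median differences were -0.47 for the TALE, -0.21 for the MLL and -0.13 for the Polycomb list, against -0.26 for all genes. Between KO and WT in bone marrow none of these 3 lists had a called member with either source. Of 12 other homeobox genes on the array 1 was tested, Gbx2, which was higher in bone marrow (1.66, limma adjusted p = 0.00731, tabled). Of 20 noncoding RNAs of the clusters, Hoxa11os and Hoxd3os1 were on the array, and neither was called.

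The genes next to the clusters were compared to see whether the tissue split stopped at the cluster borders. Taking the 3 nearest named coding genes on each side, 5 were tested beside each cluster, in a fit that called 22.9% of all genes tested. By the tabled values limma called Snx10 (1.85, adjusted p = 0.00764) and Tax1bp1 (1.79, adjusted p = 0.00485) higher in bone marrow beside the A cluster. Beside the B cluster it called Skap1 higher (limma adjusted p = 0.0212), which was above background on all bone marrow arrays and on the fetal liver KO array but not on the fetal liver WT array, and Atp5g1 (-1.26) and Ttll6 (-0.98) lower. Beside the C cluster Calcoco1 was higher (at least 2.33-fold). It was above background on no fetal liver array and entered the test only through bone marrow, so nothing is read from its direction. Cbx5, which encodes the heterochromatin protein HP1 alpha, was lower (-1.23, limma adjusted p = 0.0215), and beside the D cluster none was called. The called neighbours other than Calcoco1 thus lay in both directions. Tax1bp1 also passed with the scanner values (1.81, limma adjusted p = 0.0364). None of these genes was called between KO and WT in bone marrow.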

How the data were processed

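RNA from KSL cells was measured on 6 Agilent 1-colour (Cy3) arrays, from 10 ng of total RNA per the labels. The deposited scanner files hold a background-subtracted intensity per spot, which the submitters' processing notes credit to Agilent Feature Extraction 10.7.1.1, and a flag for spots well above background, per the file headers. The deposited value table holds a linear ratio per probe. For 5 arrays it equals the scanner signal divided by a constant close to the 75th percentile, but not for the array labelled bone marrow WT replicate 1. There were 0 other columns of per-sample values.

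Levels were log2 of the deposited processed signal minus each array's 75th percentile, averaged over repeated spots, without control spots and spots flagged as outliers. Probes were named through RefSeq accessions (26762 of 55681 probes, 20284 genes). The probe brightest by the scanner values was used for both sources; by the table alone another would be brightest for 114 genes. In the table, a level above -3.7 stood in for the background flag of the array labelled WT replicate 1, which matched 99.1% of the flags of the KO array on the same slide. Genes were tested if above background on all arrays of a group, with limma 3.58.1 (lmFit, eBayes) in R 4.3.3 (files read by data.table, version 1.17.8), and were called at a Benjamini-Hochberg adjusted p under 0.05 over all genes tested. Bone marrow KO against WT used the bone marrow arrays, while tissue and genotype were fitted additively on all 6. For the interaction, the single fetal liver arrays are taken to have the spread of the bone marrow ones. Fits were tested on simulated data with known changes. The number of arrays limits the precision.

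Each slide holds a KO and a WT array of the same number and was scanned on its own, per the file headers, so replicate numbers mark shared slides. The deviations of same-numbered bone marrow arrays correlated at 0.11 by the scanner values and 0.63 by the tabled values over 11127 genes. Alternatives were normexp (offset 50, on median signals), quantile normalization, other filters, the slide as a block, and leaving out each array. Per-array values are given for Hox genes above background on every array of at least 1 group, with all called members, Meis1, Kmt2a, Bmi1 and Ezh2. Some genes are not reported here by name, though counts and medians include them. Members and lists were chosen with earlier results of these data known.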

Additional observations from a re-analysis of the deposited data

How the results depend on the processing

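The 2 sources of the array labelled WT replicate 1 of bone marrow give different calls. Bone marrow KO against WT called 0 Hox genes and 0 genes in all by the scanner values, and 1 and 112 by the table, 3 and 981 by the table with the replicate block (0 and 0 by the scanner values with it), and 0 Hox genes with 11 genes (no filter) or 27 genes (filter on all arrays) by the table. Leaving out each array gave 0 to 7 Hox genes and 0 to 2391 genes. Genotype over both tissues called 0 genes by the scanner values, 23 by the table, 2 after quantile normalization, and 11 (no filter) or 19 (filter on all arrays) by the table, with 0 to 1 Hox genes and 0 to 79 genes when each array was left out. Bone marrow against fetal liver called 0 Hox genes and 287 genes by the scanner values, 6 and 3089 by the table, 3 and 825 by the table with the slide as a random block, 7 and 1791 by the table with no filter, 2 and 2865 by the table with the filter on all arrays, and 191 genes after normexp. Leaving out each array gave 0 to 6 Hox genes and 0 to 1696 genes. Of these Hox genes 2 of 6 were lower in bone marrow without fetal liver WT (tabled), and with no filter 1 of 7 was lower. The interaction called 0 genes with all arrays, and 0 to 8 Hox genes and 0 to 1440 genes when each bone marrow array was left out. It has no value without a fetal liver array. Of the genes named, Hoxa10 reversed between tissues to -0.36 without fetal liver KO and -0.61 without bone marrow WT replicate 2, and Hoxb5 to -0.21 without fetal liver KO, all by the scanner values. Over all arrays left out in turn, Hoxa10 reached 2.17 and Hoxb5 3.06. The cause was not tested beyond the fewer arrays. In fetal liver 426 genes were at least 2-fold apart after normexp, against 1238. The table fits that leave out an array or change the filter were added after the data were seen. Genes near background, such as Hoxb3, Hoxb5, Hoxc6 and Hoxc9, are limited by signal over background.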
